A study of Mus musculus with 82 samples.

Results

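The 300 regions described here are isolated HP1γ ChIP-seq peaks that lie far from any protein-coding gene in mouse embryonic stem (ES) cells. They were chosen from the deposited HP1γ peak list by position alone. A peak on chromosomes 1 to 19 was taken when no other HP1γ peak lay within 10 kb of it and when its nearest protein-coding gene of the GRCm38.p6 assembly was 50 kb or more away. The list holds 2047 peaks, of which 1994 lie on chromosomes 1 to 19 and 1391 of those are isolated, so the 300 far peaks are 21.6% of the isolated peaks (95% Wilson interval 19.5% to 23.8%). The other 1091 isolated peaks, called the nearer isolated peaks below, comprise 546 outside protein-coding genes but under 50 kb from one and 545 that overlap one. A further 91 of the 391 far peaks had another HP1γ peak within 10 kb and were left out.

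The series holds 82 samples in 32 groups of ChIP-seq, input, RNA-seq and ATAC-seq libraries from untreated ES cells of a hybrid 129-C57BL/6 background. The HP1γ list is tied by the series description to 3 HP1γ ChIP replicates from cells with the genotype Cbx3 FlagAvi and to 3 from cells that carry the same tagged gene and an Adnp knock-out. FlagAvi is a tag that lets the protein be captured on streptavidin beads, and Cbx3 is the gene that encodes HP1γ. The Adnp list, used here for comparison, is tied to 3 replicates from cells with tagged Adnp (Adnp FlagAvi) and holds 15026 peaks, 14903 of them on chromosomes 1 to 19. Both lists were pooled over replicates by the authors, so no value below has an error between replicates. The far peaks carry labels with the term AdnpKO. The names of the HP1γ list as a whole point to the Adnp knock-out, although the list is tied to both genotypes. The genotype in which an HP1γ peak was seen is thus not settled here. Comparisons with Adnp peaks below may set HP1γ sites of knock-out cells beside Adnp sites of cells that have Adnp, which was not tested. The name of the HP1γ list says that it is without the Adnp motif, and how that selection was made is not stated. Neither list gives read counts, so the depth behind a peak is unknown, and they hold no expression values against which the cell type could be checked.

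HP1γ is one of the mammalian heterochromatin protein 1 paralogs. Its chromodomain binds methylated lysine 9 of histone H3, and its chromoshadow domain forms dimers that bind other proteins. Adnp is a zinc finger and homeobox protein that joins HP1 proteins and the chromatin remodeller Chd4 in the complex called ChAHP, which can place HP1 on chromatin through DNA binding by Adnp. Stretches of the genome without protein-coding genes, often called gene deserts, tend to flank genes for neuronal adhesion proteins and for regulators of development.

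A single RefSeq promoter window, from 250 bases before to 50 bases after an annotated gene start, overlapped any of the 300 peaks. It belongs to the long noncoding RNA gene LOC108167736 on the minus strand of chromosome 1, at chr1:154116133-154116432 on GRCm38.p6. All 300 bases of the window lie inside an HP1γ peak at chr1:154116111-154116703, which is 593 bp wide and 84.5 kb from its nearest protein-coding gene, the zinc finger gene Zfp648. The window is shown because it is the one annotated gene start on these peaks whose sequence is in the table used. It is printed 5′ to 3′ on the gene's strand, with CpG dinucleotides in capitals:
LOC108167736: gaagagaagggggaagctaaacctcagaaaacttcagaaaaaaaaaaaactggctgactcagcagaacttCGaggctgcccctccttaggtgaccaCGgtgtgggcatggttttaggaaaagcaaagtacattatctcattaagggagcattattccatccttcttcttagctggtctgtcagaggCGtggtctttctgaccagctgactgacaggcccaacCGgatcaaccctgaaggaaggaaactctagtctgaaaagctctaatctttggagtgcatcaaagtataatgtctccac
The window holds 4 CpG dinucleotides and its GC content is 46%. The 11575 lncRNA windows of the same table have a median of 4 CpG dinucleotides and a median GC content of 48.3%, so this start is close to the middle of its kind on both measures. Windows of protein-coding genes have medians of 13 CpG dinucleotides and 56.7% GC.

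The far peaks were spread over a wide range of gene distances. The nearest protein-coding gene lay between 50.1 and 1847 kb away, edge to edge, with a median of 184 kb and quartiles of 87.0 and 388 kb. Of the 300 peaks, 96 lay 50 to under 100 kb away, 64 lay 100 to under 200 kb away, 83 lay 200 to under 500 kb away, 36 lay 500 kb to under 1 Mb away and 21 lay 1 Mb or more away. Thus 57 peaks (19%, 95% Wilson interval 15.0% to 23.8%) had no protein-coding gene within 500 kb. At the threshold, the peaks just inside were near Scgb2a2 (50.1 kb), Tmem44 (50.1 kb), Hpgd (50.1 kb), Gxylt1 (50.7 kb) and Tac1 (51.0 kb), and those just outside were near Cenpe (49.4 kb), Virma (49.1 kb), Hephl1 (49.0 kb), Mier3 (48.7 kb) and Bcas2 (48.7 kb).

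Most of the 10 most remote peaks were nearest to a cadherin or protocadherin gene. Of the 10 peaks farthest from a protein-coding gene, 8 had a cadherin or protocadherin gene as the nearest one, and a ninth was nearest to Slitrk5, which encodes a synaptic adhesion protein. The most remote peak, at chr14:91166190-91166442, was 1847 kb from Pcdh9, a protocadherin gene. The next, at chr14:91279399-91279975, was 1734 kb from the same gene, and another at chr14:91446724-91447275 was 1566 kb from it. A peak at chr14:113359559-113359830 lay 1676 kb from Slitrk5. Single peaks lay 1671 kb from Cdh6 on chromosome 15, 1590 kb from Pcdh7 on chromosome 5, 1528 kb from Pcdh17 on chromosome 14, 1498 kb from Cdh8 on chromosome 8 and 1432 kb from Pcdh20 on chromosome 14. The remaining peak of the 10 was at chr8:51992033-51992282, 1519 kb from Aga, which encodes a lysosomal enzyme. Of the 8 peaks with a cadherin or protocadherin nearest, 4 lie in the single gap between Pcdh20 and Pcdh9. Of the 21.3 Mb of sequence at least as remote as the last of the 10 (1432 kb or more), 27.3% has a gene of this family nearest. The gene distance that ranked these peaks is also what chose the far peaks, so the count is a description. The nearest Adnp peaks of the 10 were between 290 kb (the peak near Cdh8) and 4152 kb (the peak near Pcdh7) away.

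The next comparison set the density of isolated HP1γ peaks against that of Adnp peaks in sequence at increasing distance from protein-coding genes. Sequence 50 kb or more from such genes made up 840 Mb, or 35.0% of the sequence considered. It held 0.357 isolated HP1γ peaks per Mb (95% exact Poisson interval 0.318 to 0.4), against 0.698 per Mb (0.657 to 0.741) in sequence nearer to or inside genes. The density near genes was thus 1.96 times that far from genes (95% exact interval 1.72 to 2.23). For Adnp peaks the same ratio was 6.80 (6.39 to 7.24), from 8.84 per Mb near genes to 1.30 per Mb far from them. Restricting the Adnp list to peaks with no other Adnp peak within 10 kb gave a ratio of 4.96 (4.61 to 5.34).

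Within the far sequence the densities of HP1γ and Adnp peaks differed in how they changed with distance. From 50 to 100 kb to the sequence at 500 kb or more, the density of isolated HP1γ peaks was 1.87 times lower (95% exact interval 1.33 to 2.64) and that of Adnp peaks 55.9 times lower (31.8 to 109). Isolated HP1γ peaks numbered 0.526 per Mb at 50 to 100 kb, 0.322 at 100 to 200 kb, 0.323 at 200 to 500 kb, 0.264 at 500 kb to 1 Mb and 0.319 at 1 Mb or more. From 100 kb outwards the HP1γ intervals overlap, and the density at 100 to 200 kb was 1.14 times that at 500 kb or more (95% exact interval 0.786 to 1.66). Adnp peaks numbered 3.32, 1.71, 0.525, 0.0587 and 0.0608 per Mb in the same ranges. Their density at 100 to 200 kb was 28.8 times that at 500 kb or more (16.3 to 56.3). With all HP1γ peaks in place of the isolated ones, the ratio of 100 to 200 kb over 500 kb or more was 1.48 (1.07 to 2.08), an interval above 1. With isolated Adnp peaks in place of all of them it was 21.6 (12.1 to 42.3), and that of 50 to 100 kb over 500 kb or more was 38.8 (22.0 to 75.7). At 500 kb or more from a protein-coding gene, 57 isolated HP1γ peaks stood beside 12 Adnp peaks, although the Adnp list is the longer one. These intervals cover counting error only, and neighbouring peaks are not independent. The HP1γ list is named as without the Adnp motif, and how much of its density by distance goes with that selection was not tested. Nor was it tested how much goes with genotype, as the names of the HP1γ list, not of its far peaks alone, point to the Adnp knock-out.

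**Figure D1:**
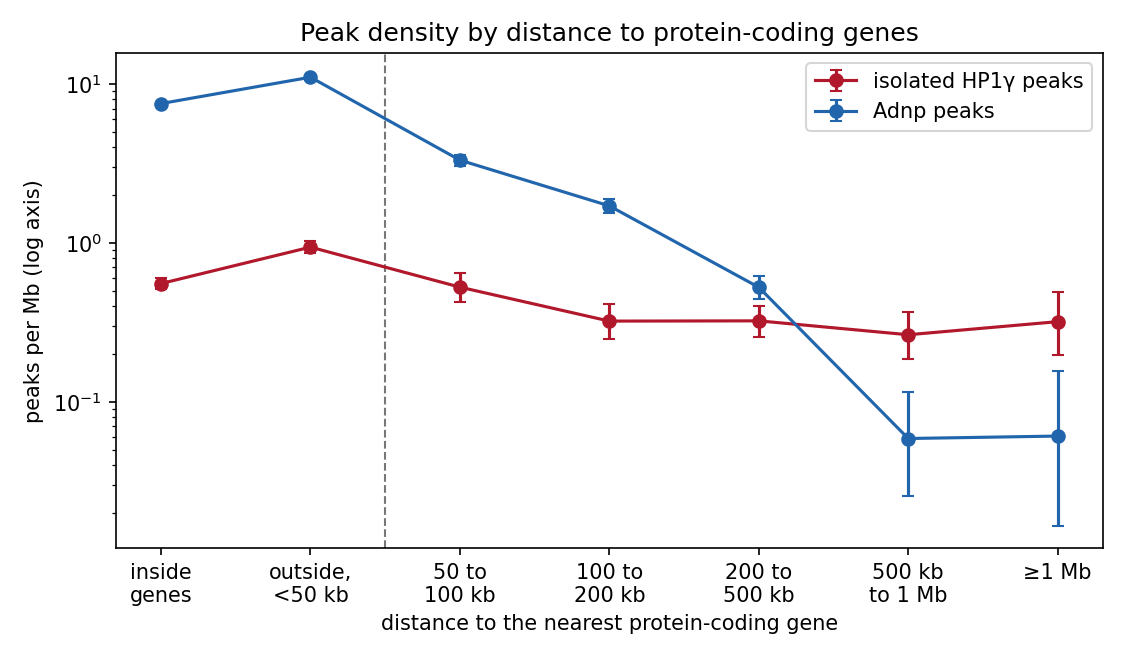
Peaks per Mb of sequence (log axis) by distance to the nearest protein-coding gene, for isolated HP1γ peaks (red) and all Adnp peaks (blue), with 95% exact Poisson intervals; the dashed line marks 50 kb. HP1γ stays between 0.264 and 0.323 per Mb from 100 kb outwards, while Adnp goes from 1.71 to 0.0608 per Mb over the same range.

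Few of the far peaks lay on an Adnp peak. At a minimum overlap of 1 bp with an Adnp peak, 11 of the 300 far peaks qualified (3.67%, 95% Wilson interval 2.06% to 6.45%), against 213 of the 1091 nearer isolated peaks (19.5%, 17.3% to 22.0%). Over all 1994 HP1γ peaks on these chromosomes the share was 15.2%. The odds ratio was 0.157 (95% interval 0.0761 to 0.292, two-sided Fisher's exact test, p = 1.69e-13, Benjamini-Hochberg adjusted p = 3.38e-13 over 4 tests). Both kinds of nearer isolated peak had similar shares, 20.7% for those outside protein-coding genes and 18.3% for those inside one. Peaks are not replicates, so the p-value describes these lists. The far sequence held fewer Adnp peaks to overlap, as the densities above give, and the selection against the Adnp motif applies to the whole HP1γ list. How much of the difference goes with either was not tested. Genotype was not tested either. The names of the HP1γ list, not of its far peaks alone, point to the Adnp knock-out, while the Adnp list is from cells that have Adnp.

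Seen from the Adnp list, 14 of 1092 Adnp peaks 50 kb or more from a protein-coding gene were overlapped by any HP1γ peak (1.28%, 95% Wilson interval 0.765% to 2.14%). Among Adnp peaks nearer to genes it was 279 of 13811 (2.02%, 1.80% to 2.27%). These intervals overlap.

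By distance inside the far group, the number of overlapping peaks was 9 of 96 peaks (9.38%) at 50 to 100 kb and 2 of 64 (3.13%) at 100 to 200 kb. It was 0 of 140 beyond 200 kb, which allows a share of up to 2.14%, taken as 3 counts over the total.

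An Adnp peak within 10 kb was also less frequent beside far peaks. It was present for 26 of 300 far peaks (8.67%, 95% Wilson interval 5.98% to 12.4%) and for 417 of 1091 nearer isolated peaks (38.2%, 35.4% to 41.1%), with 35.7% over all 1994 HP1γ peaks. The odds ratio was 0.154 (95% interval 0.0967 to 0.235, two-sided Fisher's exact test, adjusted p = 2.07e-25). The limits given for the overlap apply here too. Far sequence held 1.30 Adnp peaks per Mb against 8.84 in sequence nearer to or inside genes, and the test did not adjust for this. How much of the difference goes with it was not tested. All 11 far peaks with an Adnp peak within 1 kb were overlapping ones. The median distance to the nearest Adnp peak was 336 kb for far peaks, with quartiles of 69.4 and 910 kb. It was 27.2 kb for isolated peaks outside but near genes, 25.4 kb for those inside genes and 14 kb for the 603 peaks with another HP1γ peak within 10 kb. An Adnp peak lay within 50 kb of 61 far peaks, 209 were 100 kb or more from one, and 65 were 1 Mb or more from one. For 119 of the 300 far peaks (39.7%) the nearest Adnp peak was closer than the nearest protein-coding gene. The rule that chose the far peaks sets the gene distance to 50 kb or more, so this count is a description without a reference share.

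**Figure D2:**
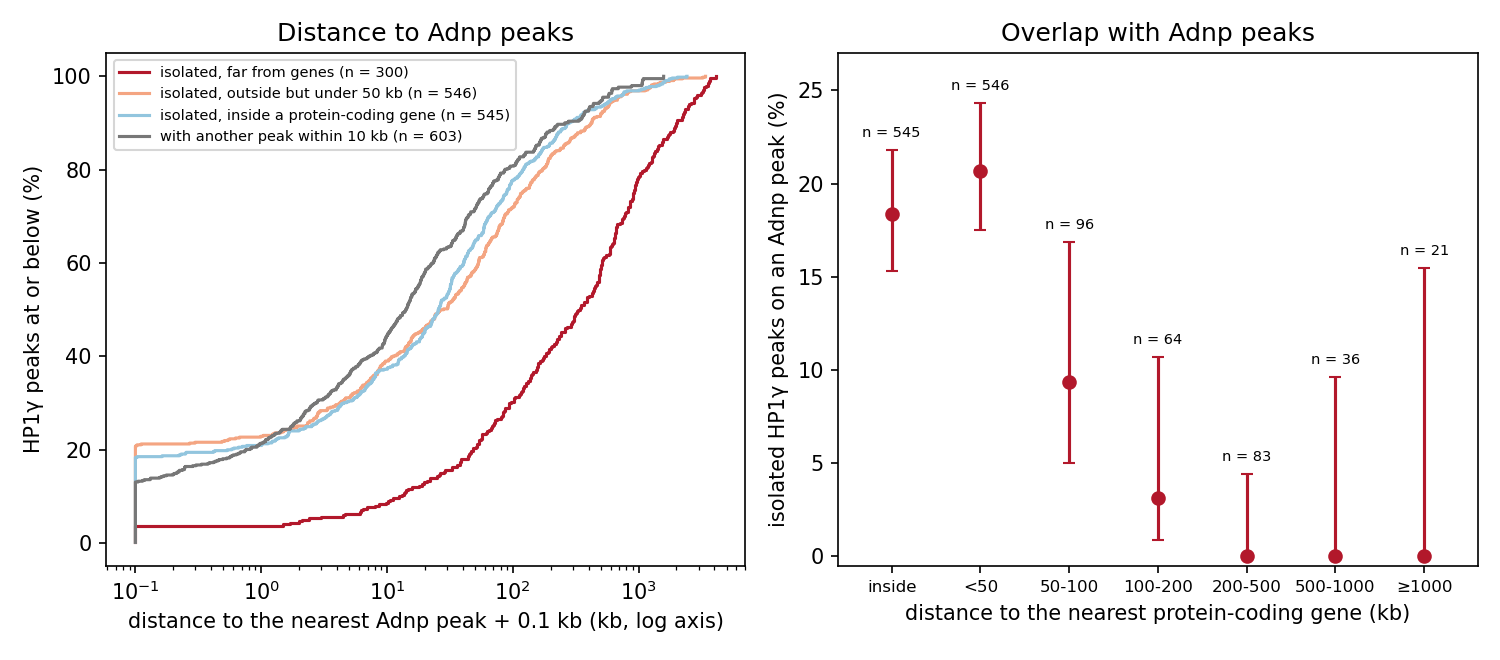
Left, cumulative share of HP1γ peaks (%) by distance to the nearest Adnp peak plus 0.1 kb (log axis), for the 4 classes of HP1γ peak. Right, share of isolated HP1γ peaks on an Adnp peak (%, 95% Wilson intervals) by distance to the nearest protein-coding gene. The curve of the 300 far peaks lies to the right of the other 3, and the overlap goes from 20.7% just outside genes to 0 of 140 peaks beyond 200 kb.

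The far peaks that did lie on Adnp peaks were among the closer ones to genes, at 50.1 to 149 kb. The longest shared stretch, 472 bp, was at chr1:13791401-13791951, 89.2 kb from Xkr9, which encodes a membrane protein of the Xk-related family. The Adnp peak there had a score of 62.5, the highest of the 11. A 937 bp HP1γ peak at chr14:31916230-31917166, 85.7 kb from Ankrd28, a subunit gene of a protein phosphatase complex, shared 459 bp with an Adnp peak of score 52.8. The peak near Zfp703, which encodes a zinc finger corepressor, shared 416 bp, and that near Thap1, a gene for a DNA-binding protein, shared 406 bp. Both of these lie in the same 813 kb gap between Thap1 and Zfp703 on chromosome 8.

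The shared stretch was 367 bp for the peak near 1700015G11Rik and 339 bp for that near Pcbd1, an enzyme gene. It was 329 bp near Zfhx3, a gene for a zinc finger and homeobox transcription factor, and 306 bp near Abhd2, a lipase gene. The peak near Bach2, which encodes a transcriptional repressor of lymphocytes, shared 226 bp, and that near Adgre5, a gene for an adhesion receptor, was covered over its whole 213 bp. The last of the 11, near Tmem44, shared 51 bp. The authors' scores of these Adnp peaks, whose kind is not stated, ran from 6.86 to 62.5 with a median of 24.4. The median was 20.6 over the 1092 far Adnp peaks and 21.2 over the list, so the Adnp peaks on far HP1γ peaks were neither the strongest nor the weakest by that score.

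Another 15 far peaks had an Adnp peak within 10 kb without overlap. The one at chr8:52358522-52358828 stood apart among them, because it was 1153 kb from its nearest protein-coding gene, Aga, but 1.60 kb from an Adnp peak. The other 14 were between 55.7 and 185 kb from a protein-coding gene.

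The kinds of gene nearest to the far peaks were compared with the kinds nearest to all sequence 50 kb or more from genes, which is what peaks placed evenly over that sequence would have beside them. The families were taken from sets of gene symbols that do not hold every gene of a kind, and genes outside the sets were counted as remaining genes. No far peak had an olfactory receptor gene as its nearest protein-coding gene, although 1103 such genes were in the table. That 0 of 300 allows a share of up to 1%, and 0.162% of the far sequence has one nearest. Vomeronasal receptors, which detect pheromones, were nearest to 4 far peaks (1.33%, 95% Wilson interval 0.520% to 3.38%, against 0.312% of far sequence). These were 51.5 kb from Vmn2r96, 62.2 kb from Vmn2r25, 83.8 kb from Vmn2r26 and 99.8 kb from Vmn1r2, and the peaks near Vmn2r25 and Vmn2r26 lie in 1 gap on chromosome 6. A single peak was nearest to a taste receptor gene, Tas2r114, at 198 kb. The single peak with an immune receptor nearest lay 84.4 kb from Tlr4, which encodes the receptor for bacterial lipopolysaccharide.

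Cadherins and protocadherins, calcium-dependent adhesion proteins that are abundant in the nervous system, were the family with the most far peaks apart from the unclassified genes. They were the nearest genes of 25 far peaks (8.33%, 95% Wilson interval 5.71% to 12%), against 4.52% of the far sequence and 0.458% of far Adnp peaks. These 25 peaks had 13 nearest genes in 14 gaps. None of the 25 overlapped an Adnp peak, which allows a share of up to 12%, beside 3.67% of all far peaks, and none had one within 10 kb, beside 8.67%. Their median distance to the gene was 934 kb, and of far peaks of any kind 200 kb or more from genes, 0 of 140 overlapped an Adnp peak. The shares set beside this family were not matched for gene distance, with which the density of Adnp peaks fell. Pcdh9 had 6 of the 25 peaks, Pcdh17 had 4 and Pcdh20 had 3, all on chromosome 14. Cdh20 and Pcdh7 had 2 each, and Cdh6, Cdh7, Cdh8, Cdh9, Cdh13, Cdh18, Pcdh18 and Pcdha1 had 1 each.

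The density beside this family rested on chromosome 14. Far sequence nearest to a cadherin or protocadherin held 0.659 isolated HP1γ peaks per Mb (95% exact Poisson interval 0.426 to 0.972). On chromosome 14 the value was 1.44 per Mb (0.766 to 2.46), against 0.723 for all far sequence of that chromosome. On the other chromosomes it was 0.415 per Mb (0.214 to 0.725), and the interval included the value of 0.335 for all far sequence there.

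The set labelled axon and synapse adhesion genes also holds ephrin receptors, netrin receptors and neuregulins. Its genes were nearest to 14 far peaks (4.67%, against 7.19% of far sequence). Among these were Adgrl2 at 63.6 kb, Epha7 at 68.5 kb, Unc5d at 102 kb and Nrg3 at 131 kb, which encode a latrophilin receptor, an ephrin receptor, a netrin receptor and a neuregulin. Ion channels and neurotransmitter receptors were nearest to 7 (2.33%, against 3.00%). The closest were Kcne2 at 70.8 kb, the glutamate receptor gene Grm4 at 71.5 kb, and the potassium channel genes Kcnn2 at 96.7 kb and Kcnv1 at 105 kb. In both families the share of far sequence fell inside the Wilson interval of the peaks.

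Developmental transcription factors, as counted by a set of symbols, had different shares in the 2 lists. The genes of the set were nearest to 5 far HP1γ peaks (1.67%, 95% Wilson interval 0.714% to 3.84%), to 4.48% of the far sequence and to 6.50% of the far Adnp peaks (71 of 1092). The set leaves out some such genes, for example the homeobox gene Isx, which was nearest to 3 far peaks, so the shares depend on it. Among the 5 were peaks near Zfhx3 (90.8 kb), Irx3 (249 kb) and Hand2 (295 kb). Irx3 encodes a homeobox protein and Hand2 a factor of heart and limb development. The peak near Zfhx3 was the one on an Adnp peak.

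Zinc finger names were nearest to 7 far peaks (2.33%, against 1.33% of far sequence), among them the 3 near Zfp703 and single peaks near Zfp648 (84.5 kb), Zfp236 (87.8 kb) and Zfp36l2 (143 kb). Predicted or RIKEN names were nearest to 19 (6.33%, against 7.22%), the closest being 1700001O22Rik at 55.7 kb. Protease inhibitors and secreted protein clusters were nearest to 3, namely Scgb2a2 (50.1 kb), Serpinb6d (62.8 kb) and Serpinb8 (1015 kb). All remaining genes were nearest to 214 far peaks (71.3%, against 70.6%).

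**Figure D3:**
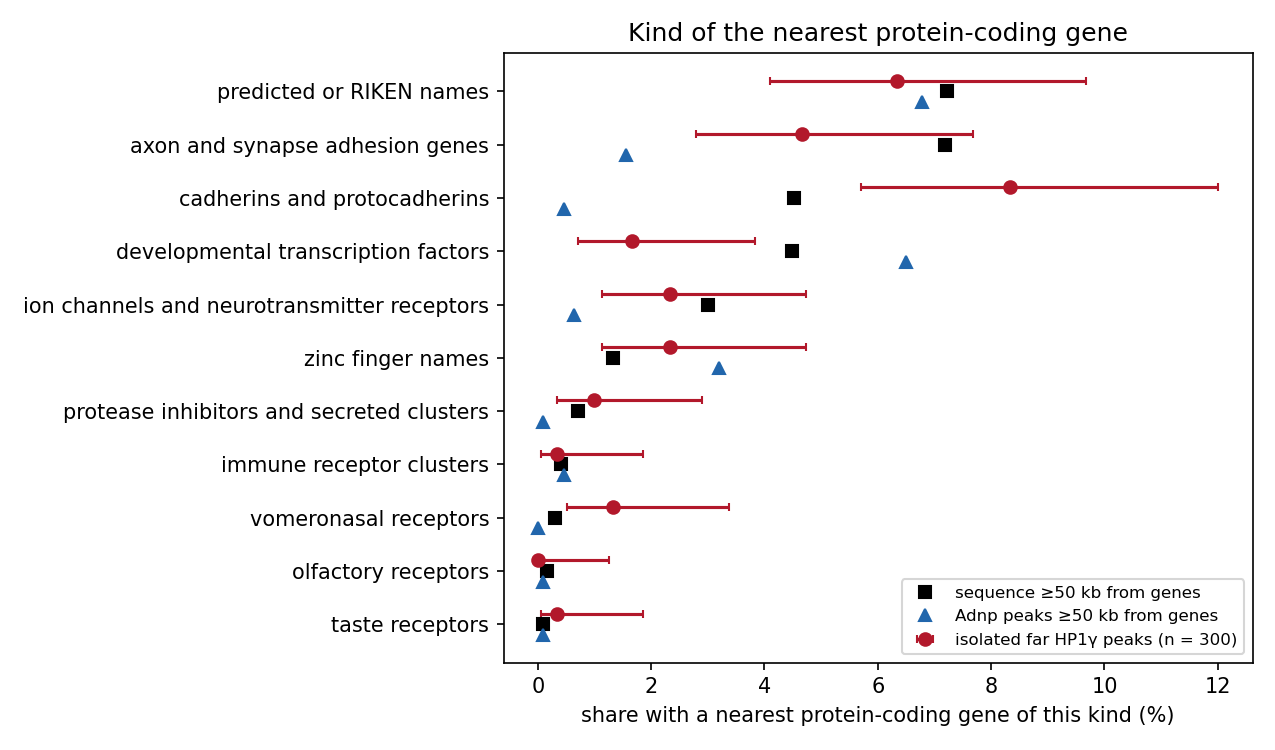
Share (%) of the 300 isolated far HP1γ peaks (red, 95% Wilson intervals), of sequence 50 kb or more from genes (black squares) and of far Adnp peaks (blue triangles) whose nearest protein-coding gene is of each kind. Cadherins and protocadherins are at 8.33% of HP1γ peaks, 4.52% of sequence and 0.458% of Adnp peaks, and developmental transcription factors at 1.67%, 4.48% and 6.50%.

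The 300 far peaks had 255 different nearest protein-coding genes, and 34 genes were nearest to more than 1 peak. The peaks lay in 238 gaps without protein-coding genes, with a median length of 628 kb, of which 232 lie between neighbouring protein-coding genes and 6 reach the end of the sequence considered on a chromosome. Of these gaps, 197 held a single far peak and the other 41 held 103 between them. Long gaps held far peaks more often. Of gaps of 100 to 200 kb, 3.87% held at least 1, against 13.5% of gaps of 500 kb to 1 Mb and 52.1% of the 73 gaps over 2 Mb. Per Mb of far sequence the order was another one: the value was highest in the shortest gaps, at 1.06 in gaps of 100 to 200 kb and 0.407 in gaps of 200 to 500 kb, against 0.269 in gaps of 500 kb to 1 Mb, 0.270 in gaps of 1 to 2 Mb and 0.342 in gaps over 2 Mb.

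The 5 gaps with the most far peaks differed in their Adnp peaks. The 4542 kb gap between Pcdh20 and Pcdh9 held 7 far HP1γ peaks and 1 Adnp peak. The 2109 kb gap on chromosome 8 between F2rl3, a thrombin receptor gene, and Isx, an intestinal homeobox gene, held 6 far HP1γ peaks and no Adnp peak. The 4420 kb gap between Olfm4 and Pcdh17 held 4 and no Adnp peak, with 3 of the 4 lying 216 to 320 kb from Pcdh17. The gap between 1700015G11Rik and Luzp2 held 4 far HP1γ peaks and 2 Adnp peaks. The 813 kb gap between Thap1 and Zfp703 held 4 far HP1γ peaks as well, but 13 Adnp peaks.

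**Figure D4:**
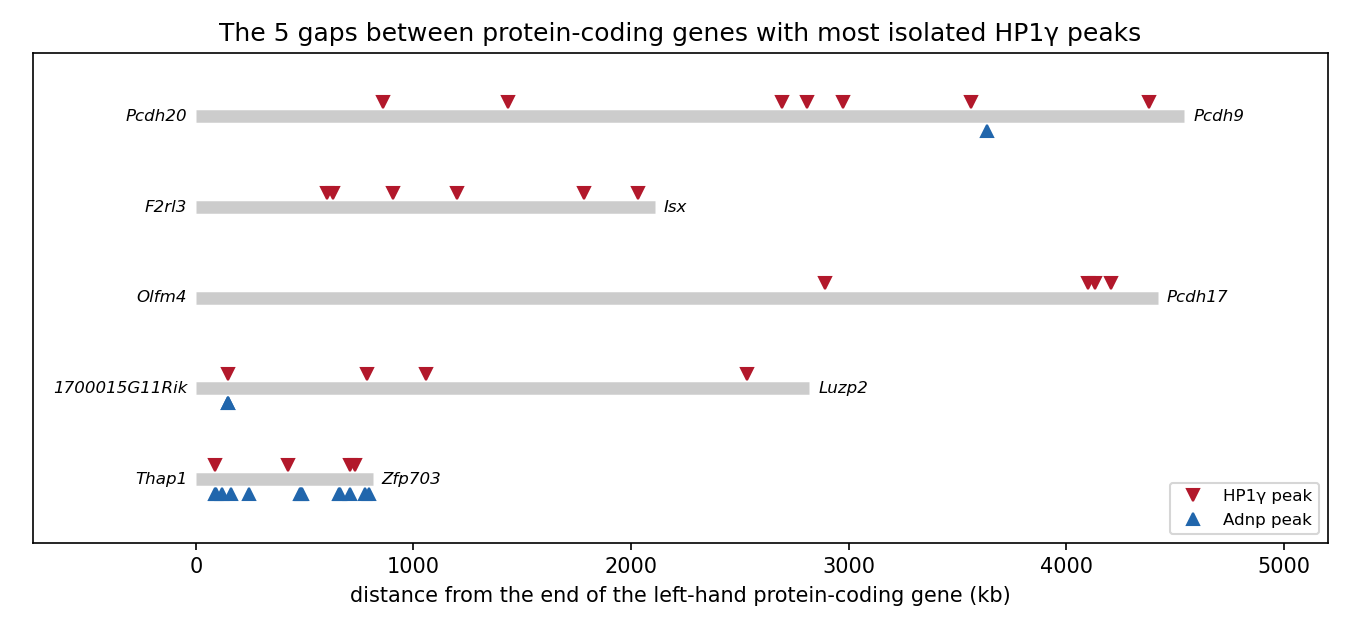
Positions of HP1γ peaks (red) and Adnp peaks (blue) in the 5 gaps with most isolated far HP1γ peaks, as distance (kb) from the end of the left-hand protein-coding gene; grey bars are drawn to the length of each gap. The longest gap, of 4542 kb, has 1 Adnp peak and the shortest, of 813 kb, has 13.

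Far peaks were unevenly spread over the chromosomes. Chromosome 1 had 38, chromosome 6 had 36, chromosome 14 had 35 and chromosome 8 had 34. Together these 4 chromosomes, singled out after their values were seen, had 143 of the 300 far peaks (47.7%, 95% Wilson interval 42.1% to 53.3%) on 26.0% of the far sequence. Per Mb of far sequence the values were 0.765 on chromosome 6 (95% exact Poisson interval 0.536 to 1.06), 0.723 on chromosome 14 (0.503 to 1.00), 0.702 on chromosome 8 (0.486 to 0.982) and 0.509 on chromosome 1 (0.360 to 0.699). The lowest were 0.135 on chromosome 12 (0.0545 to 0.279), 0.176 on chromosome 15 (0.0708 to 0.363) and 0.193 on chromosome 2 (0.0926 to 0.355). The intervals of chromosomes 6, 8 and 14 lie above those of, among others, chromosomes 2, 3, 12 and 15.

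The same 4 chromosomes held 30.0% of the nearer isolated HP1γ peaks (27.3% to 32.8%) on 23.6% of the nearer sequence. They held 27.3% of the far Adnp peaks (24.7% to 30.0%) and 22.2% of the nearer Adnp peaks (21.6% to 22.9%). In the nearer isolated HP1γ peaks, too, the share of peaks was above the share of sequence, while in the nearer Adnp peaks it was below it.

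**Figure D5:**
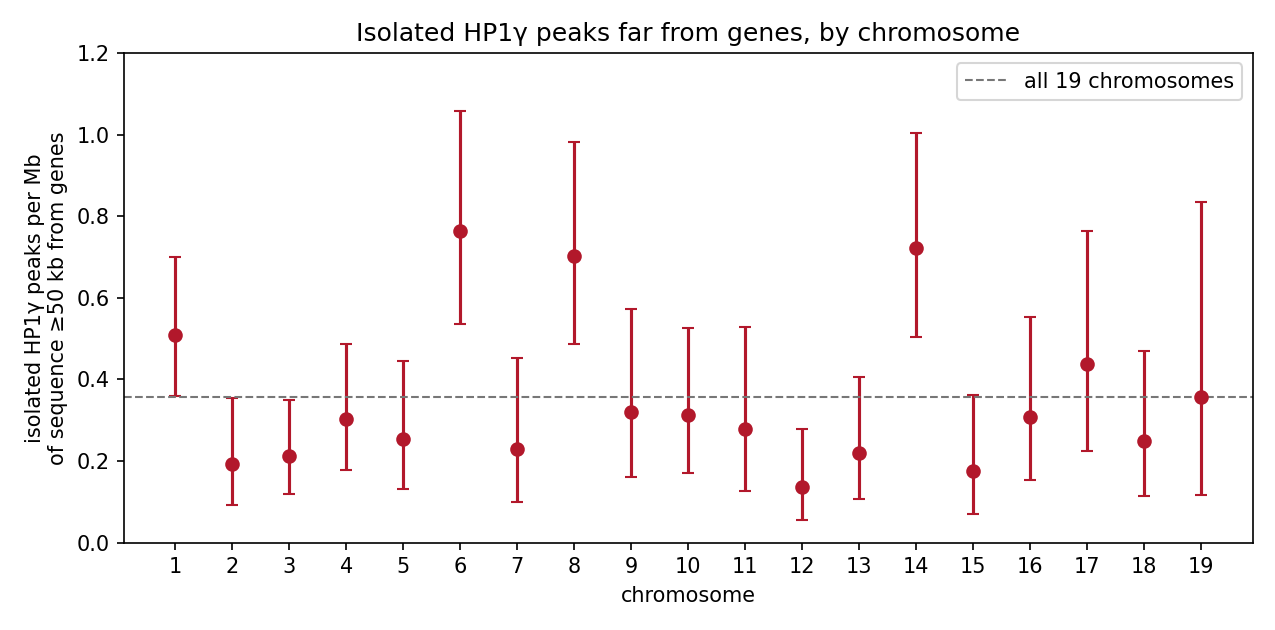
Isolated far HP1γ peaks per Mb of sequence 50 kb or more from genes, by chromosome, with 95% exact Poisson intervals; the dashed line is the value of 0.357 for all 19 chromosomes. Chromosomes 6, 14 and 8 are at 0.765, 0.723 and 0.702.

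In width, no difference between far and nearer isolated peaks passed the test. The far peaks' median width was 301 bp, with quartiles of 231.5 and 419 bp and a range of 199 to 1047 bp. At or above 305 bp, the median of all HP1γ peaks on these chromosomes, were 146 of 300 far peaks (48.7%, 95% Wilson interval 43.1% to 54.3%) and 562 of 1091 nearer isolated peaks (51.5%, 48.5% to 54.5%), with 50.2% over all 1994. The odds ratio was 0.892 (95% interval 0.685 to 1.16, two-sided Fisher's exact test, adjusted p = 0.397), and the interval includes 1. The widest far peak, at chr14:74404808-74405854, was 1047 bp wide and lay 235 kb from Htr2a, a serotonin receptor gene. It was followed by peaks near Ankrd28 (937 bp), Papola (811 bp), Isx (784 bp) and F2rl3 (766 bp). At the other end, 21 far peaks were 199 bp wide, the smallest width in the list, which 104 of the 1994 peaks shared; the first of them by position are near Sntg1, Sulf1, Cdh20, Pdc and Nrbf2. A width of 1 kb or more was found in 1 far peak and in 17 of the 1091 nearer isolated peaks.

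Distance from protein-coding genes did not mean distance from all annotated genes. Counting genes of every type, 108 of the 300 far peaks (36.0%, 95% Wilson interval 30.8% to 41.6%) were 50 kb or more from any gene and 41 were 100 kb or more from one. The nearest gene of any type was a pseudogene for 124, an lncRNA gene for 121, a protein-coding gene for 20, a snoRNA gene for 14 and an snRNA gene for 8. The rule puts protein-coding genes 50 kb or more away, and 26154 genes of other types were used beside 20556 protein-coding ones. The same shares were not measured for all far sequence, so these counts are a description of the peaks' surroundings. In all, 39 far peaks (13.0%, 9.66% to 17.3%) overlapped a gene that is not protein coding, against 111 of 1091 nearer isolated peaks (10.2%, 8.52% to 12.1%) and 12.2% of all 1994. The odds ratio was 1.32 (95% interval 0.869 to 1.97, two-sided Fisher's exact test, adjusted p = 0.229). By the same exact test the odds ratio was 2.05 against isolated peaks inside protein-coding genes alone (adjusted p = 0.00483) and 0.953 against those outside genes alone (adjusted p = 0.916).

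Of those 39 peaks, 32 overlapped an lncRNA gene, 3 a pseudogene and 4 an antigen receptor locus, which the gene table does not type as protein coding. Among the latter, named after their values were seen, were a peak nearest to Adam6a inside the immunoglobulin heavy chain locus Igh, 903 kb from an Adnp peak, and a peak nearest to Dad1 inside the T cell receptor alpha locus Tcra, 319 kb from one.

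The nearest other HP1γ peak, of any class, lay at a median distance of 491 kb from far peaks. The median was 241 kb for isolated peaks outside but near genes and 353 kb for those inside genes. Isolation was part of the rule for all these classes, so the distances are a description. In the gaps described above, 103 far peaks shared a gap with another far peak. Another HP1γ peak lay within 100 kb of 50 far peaks, and for 89 the next one was 1 Mb or more away. For the 217 far peaks whose nearest protein-coding gene has a strand in the promoter table, the nearer end of that gene was its 5′ end in 127 (58.5%, 95% Wilson interval 51.9% to 64.9%). Of all far sequence with a strand the value was 52.7%, inside that interval. Near the start of the sequence considered, at 3 Mb, 5 far peaks lay within the first 1 Mb of a chromosome's considered part, among them both peaks near Alkbh8 on chromosome 9.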

How the data were processed

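ChIP-seq for tagged HP1γ and tagged Adnp was made in mouse ES cells; per the labels' protocols, chromatin was sonicated and captured on streptavidin beads. MACS2, Bowtie 1.0.0 and bcl2fastq 1.17 are named for mm10 (GRCm38), with no roles, per the submitters' processing notes. Peak calling settings and filters are not stated there. The authors deposited each list pooled over replicates, as start and end positions. The score the authors deposited for Adnp peaks is of unstated kind and was used only as a description within that list; for HP1γ peaks it is 0 throughout. The names of the HP1γ peaks run up to 2701, so the list is a subset, and they point to the Adnp knock-out whereas its description names wild-type replicates too.

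Genes were those of a RefSeq table of GRCm38.p6 on chromosomes 1 to 19 starting at 3 Mb or later (46710 genes, 20556 protein coding). Distances are bases between edges. Far sequence was measured on a 1 kb grid between 3 Mb and each chromosome's last gene or peak. The 4 planned shares were compared between far and nearer isolated peaks with two-sided Fisher's exact tests, Benjamini-Hochberg adjusted over the 4 with a threshold of 0.05. Intervals (95%) are Wilson for shares and exact Poisson or conditional for densities and their ratios, and cover counting error only. The share that a count of 0 is said to allow is not a Wilson limit but 3 counts over the total. The scripts were tested on simulated peaks. Fisher's tests ran in SciPy 1.17.1, adjustment in statsmodels 0.14.6, tables in pandas 2.3.3 with NumPy 2.4.6 and Python 3.11.15, and plots in matplotlib 3.10.9.

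The peaks named were the 10 farthest from genes, up to 10 on Adnp peaks, the 5 widest and 5 narrowest, those of up to 10 genes nearest to several peaks, and up to 4 genes per family; some of these are not reported here. The members, families and tests were chosen with earlier results of these data known. Alternatives changed the gene distance, the isolation distance, the gene set, the reference group, the Adnp window and overlap, the width threshold and the chromosomes. The RNA-seq, ATAC-seq and other ChIP-seq groups were not used here. Without genome sequence, base composition, motifs and repeats at the peaks were not analysed here.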

Additional observations from a re-analysis of the deposited data

How the results depend on the processing

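Overlap with Adnp peaks and an Adnp peak within 10 kb were less frequent beside far peaks under all 14 and 15 alternatives run, with odds ratios of 0.0431 to 0.257 and 0.0613 to 0.251 (highest adjusted p by Fisher's exact test 1.52e-06 and 1.46e-15). None of these alternatives adjusted for the lower density of Adnp peaks in far sequence. The number of far peaks was within 1.5 times 300 under 9 of 10 alternatives, from 204 at 100 kb to 445 at 25 kb from genes. Without chromosomes 1, 6, 8 and 14, an alternative chosen after seeing the data, it was 157. Counting antigen receptor loci as coding (296 peaks) and keeping 1 peak per gap (238 peaks) were also chosen after seeing the data. Both stayed within 1.5 times 300. For width, the odds ratio of 0.892 became 1.05 against isolated peaks outside genes only. For overlap with genes that are not protein coding, the odds ratio of 1.32 became 0.953 against isolated peaks outside genes only, and passed the threshold at 1.53 with genes 25 kb or more away (Fisher's exact test, adjusted p = 0.0270) and at 2.05 against isolated peaks inside genes only; the cause was not tested. Measuring from peak centres changed no count.

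No paired analysis was possible because both peak lists are pooled over replicates and hold no value per sample. Leaving out a replicate was impossible for the same reason. The lists carry no depth, so a site without a peak cannot be told from one below the caller's threshold. Nearest genes depend on the table used. HP1γ peaks cannot be assigned to wild-type or knock-out cells here.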
